A study of Mus musculus with 2 samples.

Results

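Nos2, Arg1, Arg2, Ass1, Slc7a2 and Odc1, genes of arginine uptake and use, were followed through 2 single-cell RNA libraries of mouse MB49 tumours. They were picked by gene symbol, 6 of the 31253 genes counted, and all 6 were present in both libraries. Arginine enters cells through cationic amino acid transporters such as the one encoded by Slc7a2, and nitric oxide synthase and arginase then compete for it. The inducible synthase encoded by Nos2 makes nitric oxide and citrulline, and the enzyme encoded by Ass1 starts the route that turns citrulline back into arginine. The arginases, cytosolic for Arg1 and mitochondrial for Arg2, release urea and ornithine, from which the enzyme encoded by Odc1 makes putrescine, the start of the polyamine pathway. In mouse macrophages Nos2 is known as a gene induced by interferon gamma and microbial products, Arg1 as a gene induced by interleukin 4, interleukin 13 and hypoxia, and myeloid cells that use up arginine are known for restraining T cells.

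1 library was labelled Lcn2-ko and the other wt, with no replicate of either. Lcn2 encodes a secreted lipocalin of neutrophil granules that binds iron-carrying siderophores. The mice were chimeras: females were lethally irradiated and given marrow of male donors, Lcn2-KO for the Lcn2-ko library and WT for the wt library, a design the protocol presents as a stand-in for loss of Lcn2 in myeloid cells. Marrow gives rise to every blood lineage, and the tumour cells, the MB49 bladder cancer line in both, and any host cells left after irradiation are not stated to lack Lcn2. Tumours were digested with enzymes, live cells positive for CD45, the surface protein encoded by Ptprc, were sorted, and RNA was captured at its 3′ end with unique molecular identifiers (UMIs) on the BD Rhapsody system. The labels give female as the sex of both samples, and give neither an age nor the number of mice behind a library.

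There were 7788 barcodes with 40959725 UMIs in the library labelled Lcn2-ko (median 3570 per cell) and 7974 with 42069099 in the wt library (median 3574.5 per cell), and 4 barcode sequences occurred in both. After filtering, 7240 and 7398 cells were compared. Lcn2 itself gave 82 UMIs in neutrophils of the Lcn2-ko-labelled library and 200 in wt, or 160 and 209.5 per 1000000 UMIs of the class. Monocytes gave 43 and 2 UMIs (41.65 and 3.03 per 1000000), and macrophages 40 and 133 UMIs (7.71 and 25.4 per 1000000). A 3′ tag outside the deleted exons would be counted in both, so the genotype label is not checked by them. With 1 library per label no difference below was tested. Intervals are 95% intervals that cover counting error only, and levels are UMIs of a gene per 1000000 UMIs of a class (CPM).

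Cells were grouped without using the 6 genes or other genes of arginine metabolism, so their levels did not form the classes. Macrophages numbered 570 in the Lcn2-ko-labelled library and 572 in wt, monocytes 254 and 171, neutrophils 387 and 617, and T cells 3260 and 2996. For tumour cells the data gave 4 clusters low in Ptprc, with 1659 and 1845 cells, that passed the CD45 sort. Their summed level of 10 tumour epithelial markers was 1178 CPM in the Lcn2-ko-labelled library and 1147 CPM in wt, against 118 and 125 CPM in macrophages. The same clusters were also rich in 10 fibroblast markers, at 6328 and 6520 CPM, so they are called Ptprc-low, keratin-positive cells here and not tumour cells.

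**Figure D1:**
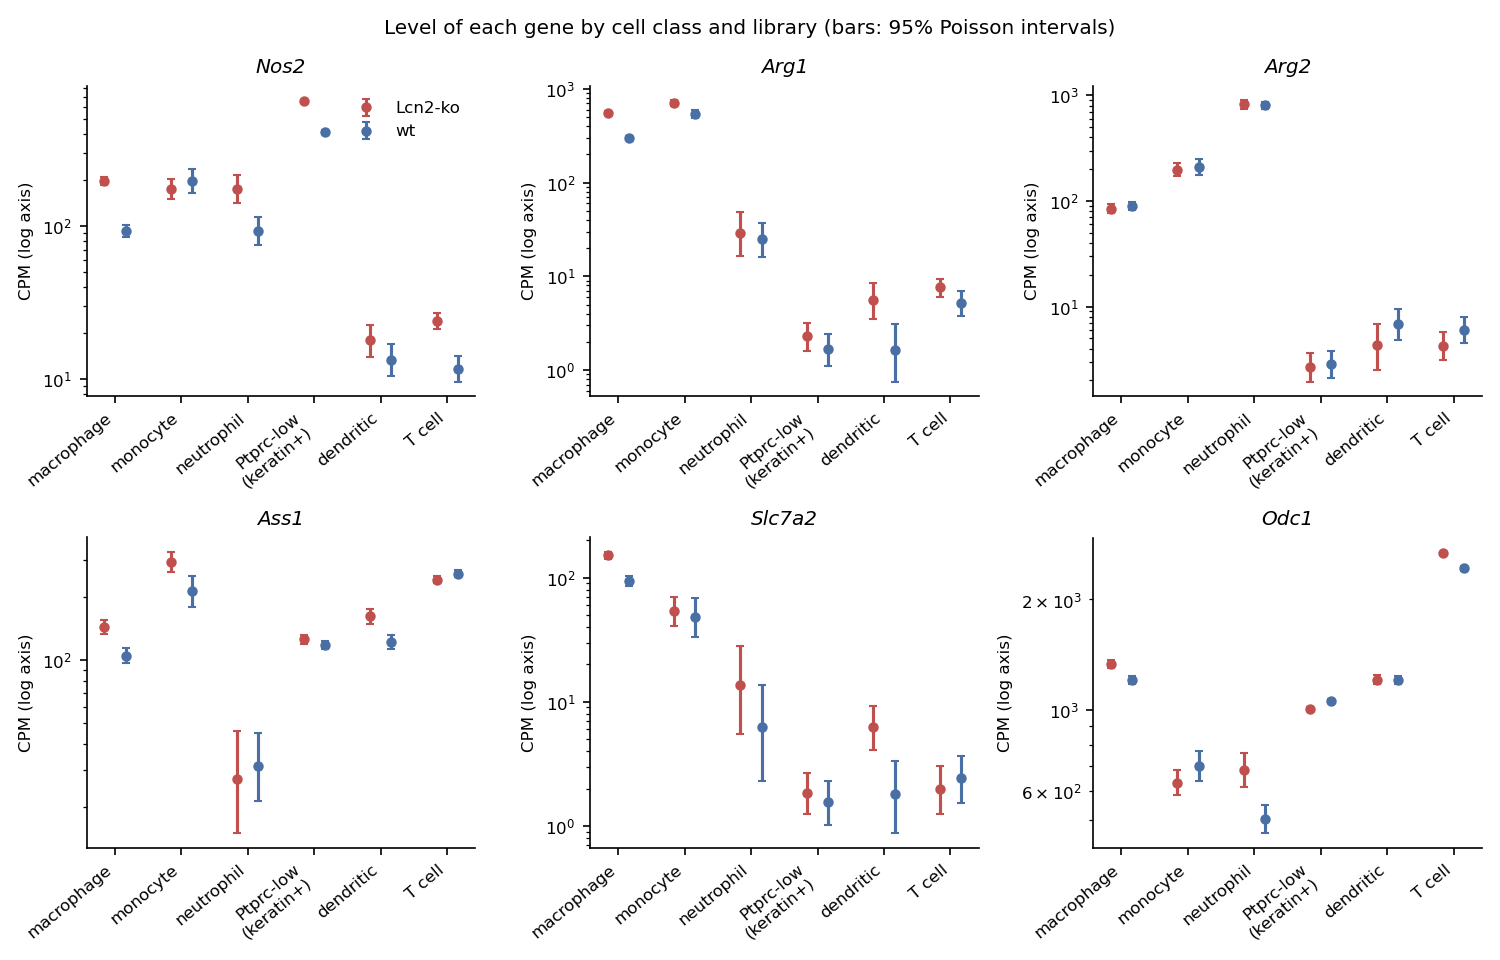
Level of each gene in CPM (log axes that differ between panels) in 6 cell classes, the Lcn2-ko-labelled library left of wt, with 95% Poisson intervals. Nos2 was highest in Ptprc-low cells, at 657 and 416 CPM, Arg1 in monocytes and macrophages, Arg2 in neutrophils, Slc7a2 in macrophages and Odc1 in T cells.

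The 6 genes differed in the captured cells that held their UMIs, shares that depend on how many cells of a class were captured and how deeply. Most Nos2 UMIs lay in Ptprc-low cells, with 86.0% in the Lcn2-ko-labelled library and 87.9% in wt. These cells held 40.3% and 42.0% of the UMIs of all genes. Arg1 lay mainly in macrophages (76.4% and 76.7% of its UMIs) and monocytes (19.3% and 17.5%), and Slc7a2 in macrophages (84.8% and 83.4%). Macrophages held 13.4% and 13.2% of the UMIs of all genes, and monocytes 2.66% and 1.67%. Arg2 was spread over neutrophils, macrophages and monocytes, with its highest level in neutrophils. Ass1 and Odc1 were found in all 4 of macrophages, monocytes, neutrophils and Ptprc-low cells, and also in T cells, where both reached their highest cluster levels.

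A gene was counted as higher or lower between libraries when its CPM differed at least 1.5-fold, and was measured if 1 of the libraries or both gave it 20 CPM or more. In macrophages 3 of the 6 genes, Nos2, Arg1 and Slc7a2, were higher in the Lcn2-ko-labelled library and none was lower, where 0.632% of 6012 genes were higher and 1.9% lower. In monocytes 0 of 6 passed in either direction, where 7.08% of 5604 genes were higher and 9.21% lower. In neutrophils 1 of the 5 genes that reached 20 CPM was higher, Nos2, where 12.2% of 4558 genes were higher and 8.78% lower, a share at which 1 of 5 is little to read. In Ptprc-low cells 1 of the 3 genes that reached 20 CPM was higher, again Nos2, where 0.357% of 6729 genes were higher and 0.594% lower. In dendritic cells 0 of 2 passed, Ass1 and Odc1, where 1.33% of 5845 genes were higher and 1.66% lower. The median log2 ratio over all these genes was 0.01 in macrophages, -0.01 in monocytes, 0.02 in neutrophils and -0.03 in Ptprc-low cells.

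**Figure D2:**
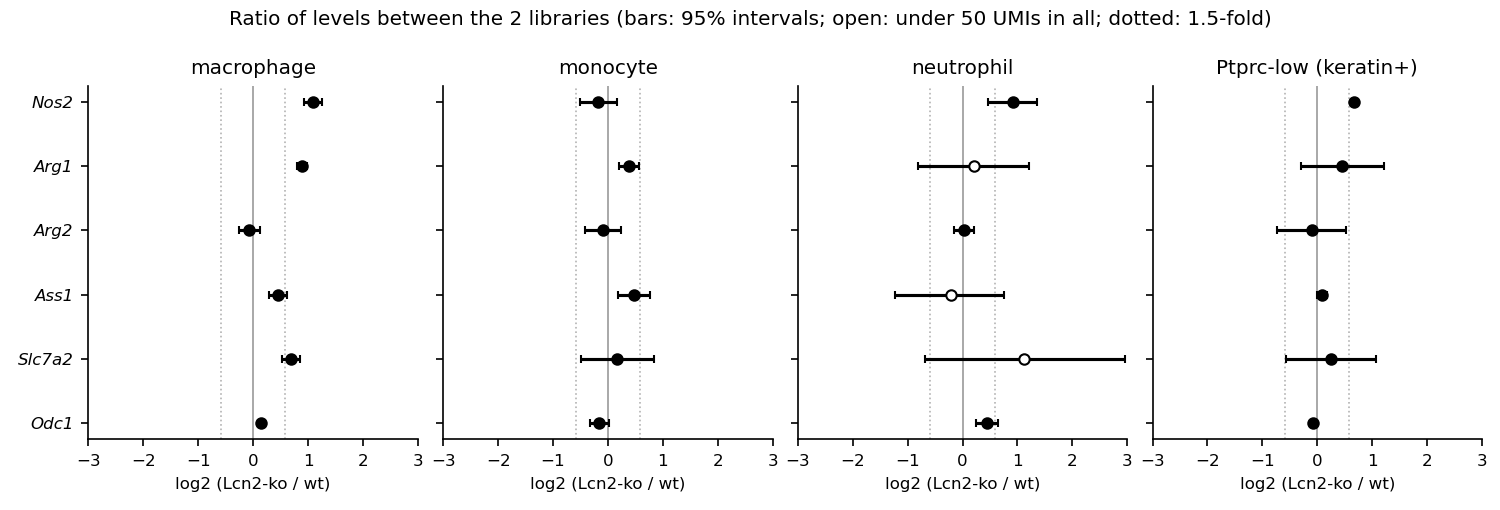
Log2 ratio of levels, Lcn2-ko-labelled library over wt, for the 6 genes in 4 classes, with 95% conditional binomial intervals; open symbols rest on under 50 UMIs in all, and dotted lines mark 1.5-fold. Nos2, Arg1 and Slc7a2 stood at 1.09, 0.89 and 0.68 in macrophages, and Nos2 at 0.91 in neutrophils and 0.66 in Ptprc-low cells.

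Slc7a2 (ENSMUSG00000031596; mm10 chromosome 8, 40862396 to 40922308, plus strand), the arginine transporter, was a macrophage gene. It gave 151 CPM (784 UMIs) in Lcn2-ko-labelled macrophages and 94.3 CPM (493 UMIs) in wt macrophages, a log2 ratio of 0.68 (0.52 to 0.85). It was under 1.5-fold as a mean of each cell's own CPM (0.51), after thinning to 800 UMIs per cell (0.41) and without states led by genes of other classes (0.47). In monocytes it stood at 54.2 CPM (56 UMIs) and 48.4 CPM (32 UMIs), a log2 ratio of 0.16 whose interval held 0 (-0.49 to 0.84). Macrophages were above monocytes in both libraries, and neutrophils were lower again, with 7 and 6 UMIs. T cells and Ptprc-low cells had at most 2.43 CPM. UMIs of Slc7a2 were found in 33.0% of Lcn2-ko-labelled macrophages and 26.6% of wt macrophages, and in 8.57% and 6.90% once each cell was thinned to 800 UMIs. T cells, which are not expected to express it, gave 0.583% and 0.668% unthinned, at a median of 2733.5 and 2612.5 UMIs per cell against 8942.5 and 8443 in macrophages.

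Nos2 (ENSMUSG00000020826; chromosome 11, 78920787 to 78960254, plus strand) encodes inducible nitric oxide synthase. In macrophages it gave 198 CPM (1028 UMIs) in the Lcn2-ko-labelled library and 93.1 CPM (487 UMIs) in wt, a log2 ratio of 1.09 (0.93 to 1.25). The intervals of the levels did not overlap. In monocytes the order was turned, 175 CPM (181 UMIs) in the Lcn2-ko-labelled library and 198 CPM (131 UMIs) in wt, with a log2 ratio of -0.18 (-0.51 to 0.16) that held 0. Over 12 alternative settings the monocyte ratio ran from -0.90 to -0.09, with 1 value outside that interval. Neutrophils gave 175 CPM (90 UMIs) and 93.3 CPM (89 UMIs), log2 0.91 (0.47 to 1.35). With the neutrophil richest in Nos2 left out of each library, which in the Lcn2-ko-labelled library held 20 of the 90 UMIs, that ratio was 0.67, and as a mean of each cell's own CPM it was 0.51, under 1.5-fold.

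Among the 6 classes plotted, Ptprc-low cells had the highest Nos2 level, 657 CPM (10261 UMIs) in the Lcn2-ko-labelled library and 415.5 CPM (6926 UMIs) in wt, log2 0.66 (0.62 to 0.70). Their interval met that of none of the other 5 in either library. The stromal class, 25 and 18 cells, gave 28.0 CPM (5 UMIs) in the Lcn2-ko-labelled library and 454 CPM (47 UMIs) in wt, where its interval of 333 to 603 CPM overlapped that of Ptprc-low cells. Macrophages, monocytes and neutrophils overlapped one another in the Lcn2-ko-labelled library, while in wt monocytes lay above both others. A Nos2 UMI was found in 55.9% of Lcn2-ko-labelled Ptprc-low cells and 41.6% of wt ones, and in 24.6% and 16.9% after thinning. In macrophages the shares were 30.9% and 23.1%, and 8.04% and 6.55% after thinning, a difference of 1.49 points whose interval held 0 (-1.58 to 4.58). T cells, a class not expected to express Nos2, gave 6.66% and 3.34%, and 2.01% and 1.22% after thinning.

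RNA released from Ptprc-low cells would carry Nos2 and keratin together. The ratio of Nos2 UMIs to Krt8 and Krt18 UMIs was 0.639 in Lcn2-ko-labelled Ptprc-low cells and 0.414 in wt ones. In T cells it was 0.774 (0.654 to 0.915) and 0.431 (0.340 to 0.543). T cells had 24.1 and 11.7 CPM of Nos2, and whether these UMIs were their own was not tested. Their log2 ratio of 1.04 made Nos2 1 of 3 measured genes past 1.5-fold there, where 0.318% of 6294 genes were higher and 0.651% lower. In macrophages the ratio of Nos2 to keratin UMIs was 7.09 and 4.64, in monocytes 7.24 and 5.70, and in neutrophils 3.75 and 2.87. The myeloid classes thus held more Nos2 per keratin UMI than the Ptprc-low cells did. Without macrophages that held a keratin UMI, the macrophage ratio between libraries was 1.07.

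Few macrophages carried most of the Nos2 RNA. The 28 richest of 570 Lcn2-ko-labelled macrophages held 71.1% of that class's Nos2 UMIs, and the 29 richest of 572 wt macrophages 68.2%. Macrophages with at least 10 Nos2 UMIs numbered 26 in the Lcn2-ko-labelled library and 9 in wt, and the richest single cell held 93 and 62. Those 26 and 9 cells had 6 and 0 keratin UMIs, and their summed level of the 3 C1q genes, which mark macrophages, was 3758 and 3230 CPM. Intervals that count UMIs do not allow for such uneven cells. Thinning each cell to 800 UMIs reduced the log2 ratio of Nos2 in macrophages to 0.45, under 1.5-fold, and the mean of each cell's own CPM gave 0.72.

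Ass1 (ENSMUSG00000076441; chromosome 2, 31470207 to 31520672, plus strand) encodes argininosuccinate synthase. It gave 144 CPM (749 UMIs) in Lcn2-ko-labelled macrophages and 105 CPM (551 UMIs) in wt macrophages, a log2 ratio of 0.46 (0.29 to 0.62). Monocytes gave 295 CPM (305 UMIs) and 213 CPM (141 UMIs), log2 0.47 (0.18 to 0.77), and dendritic cells 162 CPM and 122 CPM, log2 0.41 (0.25 to 0.57). The intervals of these 3 ratios lay above 0, and none of the ratios reached 1.5-fold as reported. Over 12 alternative settings the macrophage ratio ran from 0.43 to 1.21. The highest, past 1.5-fold, was the 1 value outside the interval. T cells and Ptprc-low cells did not share that pattern, with 242.5 and 259 CPM (log2 -0.09) in T cells and 126 and 118 CPM (log2 0.09) in Ptprc-low cells. In neutrophils 14 and 30 UMIs gave no resolved difference. Ass1 ends 863961 bases from Lcn2 (chromosome 2, 32384633 to 32388252), so sequence carried with the Lcn2 deletion and a response of the cells cannot be told apart for this gene.

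The promoter of Ass1 is shown because of that position, and that of Odc1 because the pair shared their highest clusters, described below. They run from 250 bases before to 50 after the start of each gene (RefSeq, GRCm38.p6), at chr2:31470020-31470319 for Ass1 and chr12:17544623-17544922 for Odc1, both on the plus strand. Capitals mark the letters CACGTG, an E-box that the Myc family can bind, and GGGCGG, a GC box, or its reverse complement CCGCCC. These and TATAAA were searched on both strands.
Ass1: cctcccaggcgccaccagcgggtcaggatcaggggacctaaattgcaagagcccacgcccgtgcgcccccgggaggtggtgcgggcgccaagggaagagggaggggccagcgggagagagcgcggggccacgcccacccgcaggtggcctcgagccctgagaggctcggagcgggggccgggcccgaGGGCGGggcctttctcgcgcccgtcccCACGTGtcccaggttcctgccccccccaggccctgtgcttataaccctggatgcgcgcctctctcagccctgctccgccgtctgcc
Odc1: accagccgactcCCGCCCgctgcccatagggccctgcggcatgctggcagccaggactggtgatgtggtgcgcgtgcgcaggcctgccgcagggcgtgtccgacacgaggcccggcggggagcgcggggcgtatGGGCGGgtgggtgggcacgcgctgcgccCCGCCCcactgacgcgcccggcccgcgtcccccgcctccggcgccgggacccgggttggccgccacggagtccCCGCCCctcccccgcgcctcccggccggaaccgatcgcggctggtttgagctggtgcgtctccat
The Ass1 promoter held 1 CACGTG, 36 bases before the start, and 1 GC box. The Odc1 promoter held 4 GC boxes and no CACGTG in this window, and neither held TATAAA. Of 32851 mouse promoters of the same length, 7.15% held CACGTG, 35.7% a GC box and 13.6% TATAAA. The G and C content was 74% for Ass1 and 78% for Odc1, against a median of 52.7%.

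Arg1 (ENSMUSG00000019987; chromosome 10, 24915221 to 24927484, minus strand), the cytosolic arginase, was found mainly in monocytes and macrophages. It gave 556 CPM (2885 UMIs) in Lcn2-ko-labelled macrophages and 300.2 CPM (1570 UMIs) in wt macrophages, log2 0.89 (0.80 to 0.98). Monocytes gave 706 CPM (729 UMIs) and 542 CPM (358 UMIs), log2 0.38 (0.20 to 0.57), a ratio that was 0.06 as a mean of each cell's own CPM and -0.021 after thinning. Monocytes lay above macrophages in both libraries. Neutrophils, which carry Arg1 protein in human granules, had 15 and 24 UMIs here. Their Arg1 UMIs per C1q UMI were 0.136 (0.0738 to 0.235) and 0.145 (0.0901 to 0.223), against 0.132 (0.103 to 0.166) and 0.102 (0.0739 to 0.138) in T cells, and the intervals overlapped in each library. Whether these UMIs are the neutrophils' own was not tested. Ptprc-low cells had 2.30 and 1.68 CPM.

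An Arg1 UMI was found in 45.8% of Lcn2-ko-labelled macrophages and 34.4% of wt macrophages. After thinning the shares were 21.4% and 14.2%, a difference of 7.27 points (2.80 to 11.7). T cells gave 1.93% and 1.07% unthinned and 0.648% and 0.338% thinned. Arg1 was spread over more macrophages than Nos2, with at least 10 UMIs in 95 Lcn2-ko-labelled and 56 wt macrophages. The richest 5% of macrophages held 41.6% and 48.9% of its UMIs.

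Arg2 (ENSMUSG00000021125; chromosome 12, 79130777 to 79156301, plus strand), the mitochondrial arginase, was the arginase of neutrophils. They gave 818 CPM (420 UMIs) in the Lcn2-ko-labelled library and 804 CPM (767 UMIs) in wt, log2 0.03 (-0.15 to 0.20), and 58.9% and 59.2% of them held a UMI. Monocytes followed with 198 and 210 CPM and macrophages with 84.7 and 89.1 CPM, and the intervals of these 3 classes did not overlap. The log2 ratio was -0.09 (-0.41 to 0.23) in monocytes and -0.07 (-0.27 to 0.12) in macrophages, and both intervals held 0. Ptprc-low cells, T cells and dendritic cells had at most 6.89 CPM.

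Odc1 (ENSMUSG00000011179; chromosome 12, 17544794 to 17551505, plus strand), ornithine decarboxylase, was found in most cells. T cells were highest, at 2671 CPM in the Lcn2-ko-labelled library and 2431 CPM in wt. Macrophages had 1334 and 1207 CPM (log2 0.14), Ptprc-low cells 1004 and 1055 CPM (log2 -0.07) and monocytes 631.5 and 702 CPM (log2 -0.15). In neutrophils Odc1 gave 684 CPM (351 UMIs) and 503 CPM (480 UMIs), log2 0.44 (0.24 to 0.64), and with the cells first left out as doublets kept, 0.24. The macrophage ratio turned to -0.10 once states led by genes of other classes were left out.

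Within T cells, Odc1 and Ass1 were highest in the same places. Cluster 0, led by Foxp3, the regulator that defines regulatory T cells, and by Il2ra and Ctla4, had 4932 CPM of Odc1 in the Lcn2-ko-labelled library and 4442 CPM in wt, and 578 and 562 CPM of Ass1. Cluster 17, with Foxp3 and the proliferation gene Mki67, had 3864 and 2984 CPM of Odc1 and 430.5 and 412 CPM of Ass1. Cluster 10, led by Penk, Ccl1 and Cd4, had high Odc1 (3235 and 2416 CPM) with low Ass1 (97.6 and 115.5 CPM), so the pair did not always go together. Clusters 3, 7 and 15, led by Cd8a or Cd8b1, had 1182, 1246 and 1151 CPM of Odc1 in the Lcn2-ko-labelled library and 975, 1034.5 and 1064 CPM in wt.

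T cells with a Foxp3 UMI were then set against those without, a comparison chosen after the cluster levels were seen. Odc1 stood at 4514 CPM in 1098 Lcn2-ko-labelled cells with Foxp3, against 1737 CPM in 2162 cells without. In wt it was 4075 CPM in 1079 cells with Foxp3, against 1479 CPM in 1917 without. Ass1 stood at 516 CPM with Foxp3 against 104 CPM without in the Lcn2-ko-labelled library, and at 507 against 115 CPM in wt. Depth was alike, with medians of 2621.5 against 2786 UMIs per cell in the Lcn2-ko-labelled library and 2536 against 2649 in wt. The ornithine decarboxylase inhibitor gene Oaz1 (antizyme) differed little, at 1665 against 1600 CPM in the Lcn2-ko-labelled library and 1648 against 1496 CPM in wt.

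**Figure D3:**
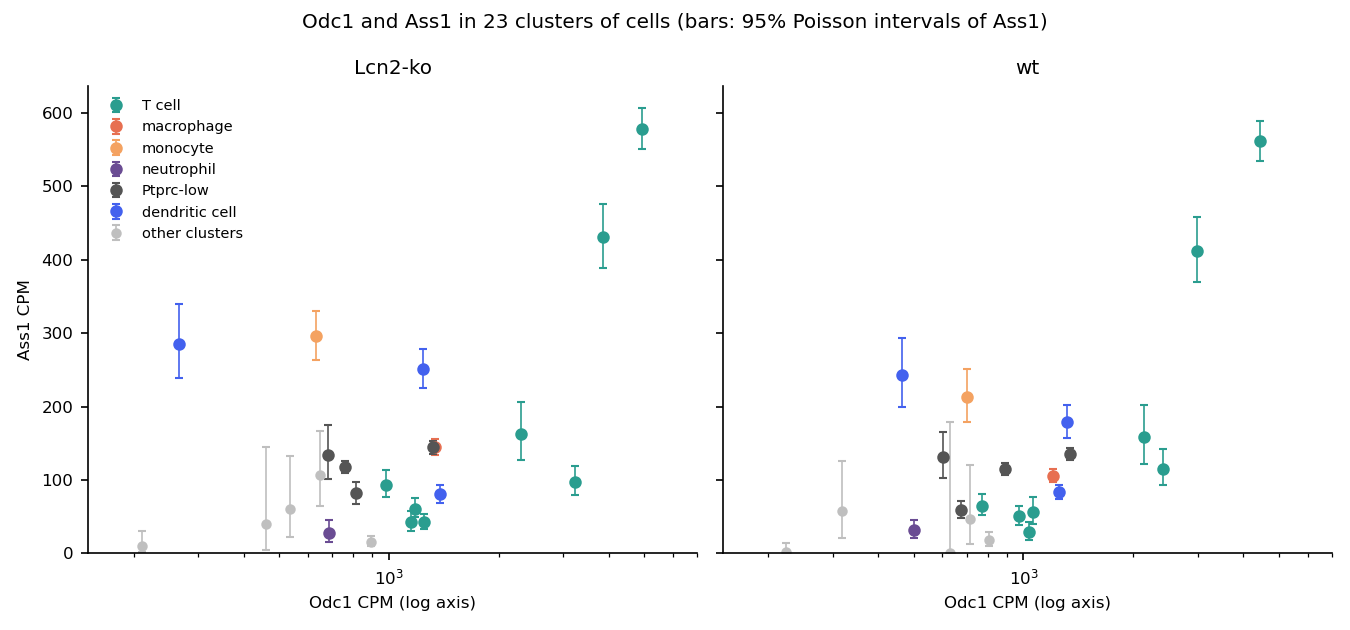
Ass1 level (CPM, with 95% Poisson intervals) against Odc1 level (CPM, log axis) in 23 clusters, the Lcn2-ko-labelled library left and wt right, coloured by class. The T cell clusters 0 and 17, with Foxp3 among their leading genes, lie at the top right, at 578 and 430.5 CPM of Ass1 in the Lcn2-ko-labelled library and 562 and 412 CPM in wt.

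Monocytes and macrophages together were divided into 9 states, numbered MM1 to MM9, again without the 6 genes. Nos2 and Arg1 were both high in MM4 and in MM5, mostly monocytes led by Slpi, Inhba and Thbs1. MM4 held 112 macrophages and 72 monocytes. It was led by Ly6i, Gpnmb and the heat shock genes Hspa1b and Hsph1, with Spp1 also among its leading genes. In MM4, Nos2 gave 420 CPM in the Lcn2-ko-labelled library and 180 CPM in wt, and Arg1 1055 and 629 CPM. In MM5, Nos2 gave 303 and 472 CPM and Arg1 1191 and 1377 CPM, so that both were higher in wt there. MM7, monocytes led by Ly6c2, Vcan and Chil3, had 5 and 6 UMIs of Nos2 and 3 and 0 of Arg1, while Arg2 stood at 268 and 272 CPM.

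The 2 genes parted in MM3, macrophages led by Selenop, Ccl8 and Apoe, where Arg1 gave 251 CPM in the Lcn2-ko-labelled library and 129 CPM in wt, log2 0.96 (0.61 to 1.31). Nos2 was lower there in the Lcn2-ko-labelled library, 68.4 CPM (61 UMIs) against 101 CPM (79 UMIs) in wt, log2 -0.57 (-1.07 to -0.07). MM6, led by Ccl17, Ccl22 and Dcstamp, had the largest Nos2 ratio of the states, 237 CPM (142 UMIs) against 36.6 CPM (27 UMIs) in wt, log2 2.70 (2.09 to 3.35). Slc7a2 was also highest there in the Lcn2-ko-labelled library, at 269 CPM against 135.5 CPM in wt. MM1, led by the neutrophil genes S100a8, S100a9 and Retnlg, gave 266 and 121 CPM of Nos2, and MM2, led by proliferation and lymphocyte genes such as Top2a and Gzmb, 132 and 39.6 CPM.

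MM1 held 15.3% of these cells in the Lcn2-ko-labelled library and 22.5% in wt, and MM2 19.4% and 13.7%. The macrophage class as a whole had 971 and 1780 CPM of 10 neutrophil markers, 1338 and 1133 CPM of 10 T cell markers and 6228 and 6099 CPM of 10 macrophage markers, with no marker of the 3 lists at 0 in either library. Without the states led by genes of other classes, the macrophage log2 ratio was 1.18 for Nos2 and 0.97 for Arg1. With the states given equal shares in both libraries it was 1.12 and 0.84.

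**Figure D4:**
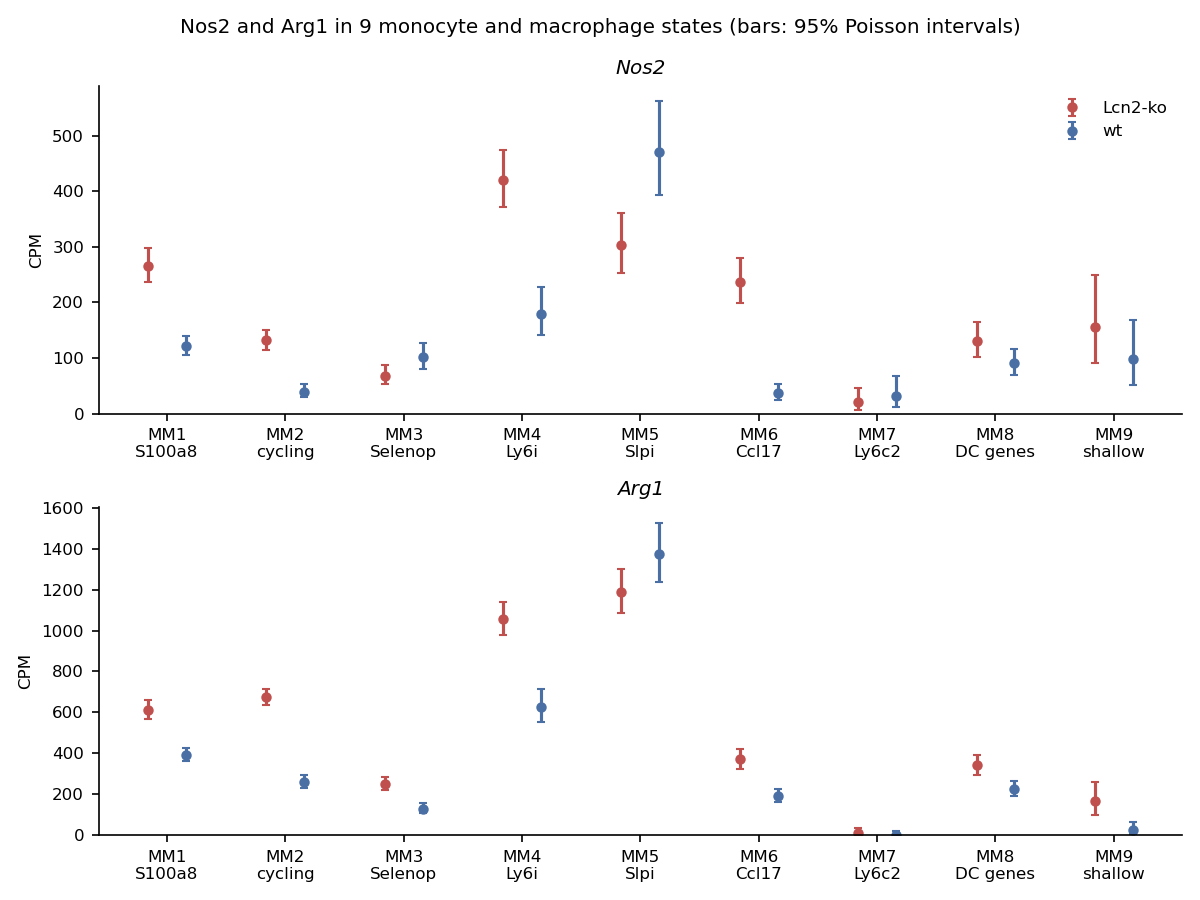
Nos2 (top) and Arg1 (bottom) in CPM, from 0, in 9 monocyte and macrophage states, the Lcn2-ko-labelled library left of wt, with 95% Poisson intervals. Nos2 was higher in the Lcn2-ko-labelled library in MM1, MM2, MM4, MM6, MM8 and, on 17 and 13 UMIs, MM9, and lower in MM3, MM5 and, on 5 and 6 UMIs, MM7, while Arg1 was lower in MM5 alone.

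Neutrophils fell into 5 states. N4, led by Saa3 and Atp6v0d2, had the highest Nos2 level, 656 CPM (44 UMIs) in the Lcn2-ko-labelled library and 309 CPM (32 UMIs) in wt, log2 1.09 (0.40 to 1.79). In N1 to N3 Nos2 gave 7 to 25 UMIs per library. Arg2 did not follow it and lay between 766 and 1038 CPM in N1 to N4 of the Lcn2-ko-labelled library and between 722 and 1009 CPM in wt. Odc1 differed most in N1, at 1019 CPM (140 UMIs) and 499 CPM (121 UMIs), log2 1.03 (0.67 to 1.39).

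Ptprc-low cells fell into 11 states, and Nos2 ranged widely among them. P8, led by the interferon-induced genes Rsad2, Gbp2 and Cxcl9, was highest, with 1747 CPM in the Lcn2-ko-labelled library and 1574.5 CPM in wt, log2 0.15 (0.03 to 0.27). P2, led by Inhba and Il6, gave 1148 and 810 CPM, and P5, led by the hypoxia-induced genes Ero1l, Adm and Bnip3, 1028 and 884 CPM. P1, led by Serpina6 and Txnip, had 192 and 84.1 CPM. Cycling cells lay between, at 407 and 213 CPM in P3 and 567 and 361 CPM in P4. The interferon state P8 held 6.81% of Lcn2-ko-labelled Ptprc-low cells and 3.74% of wt ones, and P1 16.5% and 21.0%. With equal state shares in both libraries the Nos2 log2 ratio was 0.49, under 1.5-fold, against 0.66 as observed.

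Odc1 in Ptprc-low cells moved apart by state. It was lower in the Lcn2-ko-labelled library in P1, at 700 and 1062 CPM (log2 -0.60). It was higher in P11, led by the liver-type secreted protein genes Fgb, Trf and Serpina1b, at 1335 and 659 CPM (log2 1.02).

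Macrophages with Nos2 held Arg1 more often than those without. Among Lcn2-ko-labelled macrophages with a Nos2 UMI, 101 of 176 also held Arg1, 57.4% (49.7 to 64.8%), against 40.6% of those without Nos2. Among wt macrophages 76 of 132 did, 57.6% (48.7 to 66.1%), against 27.5%. Cells with Nos2 were deeper, with a median of 10311.5 against 8197 UMIs in the Lcn2-ko-labelled library. At 800 UMIs per cell the shares were 46.7% (21 of 45) against 19.2% there and 43.2% (16 of 37) against 12.1% in wt. The macrophages richest in Nos2, with at least 10 UMIs, also had the highest Arg1 level, 1547 CPM in the Lcn2-ko-labelled library and 1414 CPM in wt, against 402 and 211 CPM in macrophages without a Nos2 UMI.

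Monocytes gave the same order, with Arg1 in 22 of 35 Lcn2-ko-labelled monocytes with Nos2 (62.9%) against 25.1% of those without, and in 16 of 32 wt ones against 22.3%. Slc7a2 and Arg1 also met. In the Lcn2-ko-labelled library 67.6% of macrophages with Slc7a2 held Arg1, against 35.1% without, and in wt 55.9% against 26.7%. After thinning the gap was 31.3% against 20.5% in the Lcn2-ko-labelled library, where the intervals overlapped, and 33.3% against 12.7% in wt. Arg2 in macrophages with Nos2, 53.4% against 33.8% in the Lcn2-ko-labelled library and 56.1% against 32.7% in wt, kept no common order at 800 UMIs, at 2.22% against 6.41% and 13.5% against 7.20%. In neutrophils 72.5% of Lcn2-ko-labelled and 63.8% of wt cells with Nos2 held Arg2, against 57.3% and 58.7% of those without, and the intervals overlapped in each library.

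**Figure D5:**
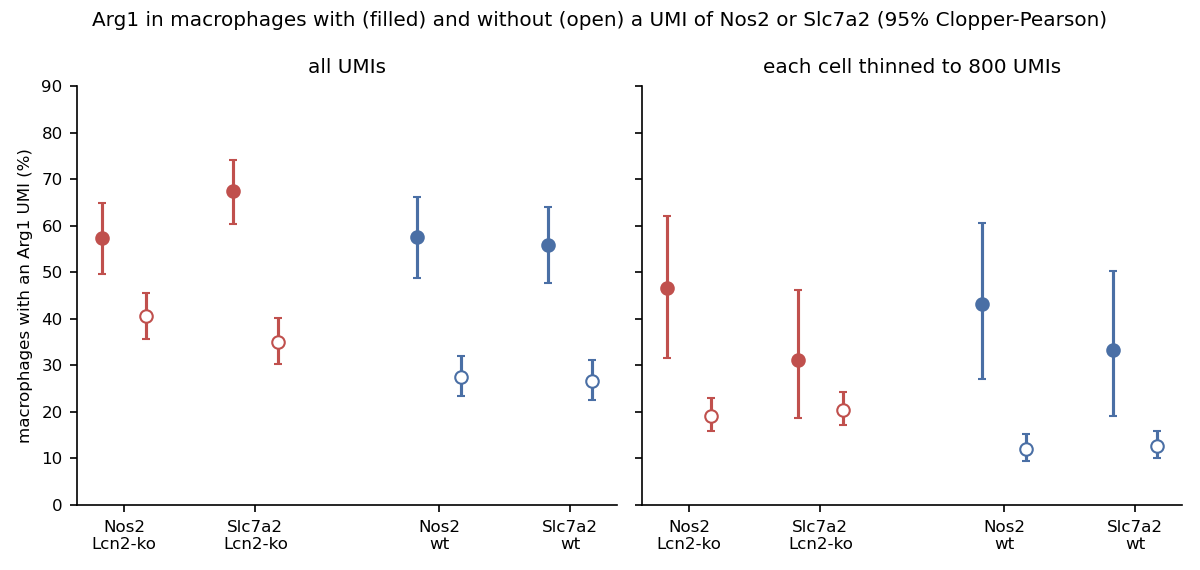
Share of macrophages with an Arg1 UMI (percent, with 95% Clopper-Pearson intervals) among cells with (filled) and without (open) a UMI of Nos2 or Slc7a2, the Lcn2-ko-labelled library left of wt, for all UMIs and for cells thinned to 800 UMIs. For Nos2 the filled points lie at 57.4% and 57.6% with all UMIs and at 46.7% and 43.2% after thinning, above the open ones in every pair.

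Counting Nos2, Arg1, Arg2 and Slc7a2 together, 37 of 570 Lcn2-ko-labelled macrophages and 22 of 572 wt macrophages held all 4, and 156 and 197 held none. Among Ptprc-low cells 897 of 1659 and 778 of 1845 held 1 of the 4, and 1 cell in all held every one.

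Macrophages with only one of the pair were then compared, 75 with Nos2 and no Arg1 against 160 with Arg1 and no Nos2 in the Lcn2-ko-labelled library, and 56 against 121 in wt. Of these Nos2 cells 21 and 20 held at least 2 Nos2 UMIs and the rest a single one. Whether the single UMIs were the cells' own was not tested. Median depths were close, 10191 against 10187 UMIs and 9403 against 9702. At least 1.5-fold higher in both libraries in the Nos2 cells were 111 of 6965 genes (1.59%), and 97 (1.39%) were lower. Among the lowest in the Nos2 cells was Chil3. Chil3, a chitinase-like protein, gave 2 UMIs in Nos2 cells and 52 in Arg1 cells of the Lcn2-ko-labelled library, and 2 and 79 in wt. Fn1 (fibronectin) stood at 133 against 623 CPM in the Lcn2-ko-labelled library and 68.2 against 483 CPM in wt, and the chemokine gene Ccl24 at 181 against 682 CPM and 94 against 442 CPM. Retnla, Il23a, Igf1, Apold1, Ppbp, Adamtsl4 and Cd27 completed the 10 genes with the lowest ratios.

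Among the highest in the Nos2 cells were Ifit2 and Top2a. Ifit2, an interferon-induced gene, gave 64.0 against 20.8 CPM in the Lcn2-ko-labelled library and 75.6 against 27.9 CPM in wt, and Top2a, a topoisomerase of dividing cells, 120 against 54.2 CPM and 149 against 64.5 CPM. The other 8 were Med24, Spc25, Rptor, Gdf3, Diaph3, Ctr9, Kif11 and Rtn1, each on at most 44 UMIs in either set of cells of a library. Of the interferon gamma response list 2 of 11 measured genes, Gbp2 and Gbp5, were higher in both libraries and none lower, with a median log2 ratio of 0.49 in each library against 0.01 and 0.03 over all genes. Of the alternative activation list 4 of 10, Mrc1, Retnla, Chil3 and Ccl24, were lower and none higher, with medians of -1.04 and -0.57. Slc7a2 was lower in the Nos2 cells (log2 -1.03 and -2.14), and Arg2 (-0.17 and -0.08), Ass1 (0.33 and 0.13) and Odc1 (0.01 and -0.28) stayed within 1.5-fold. When at least 2 UMIs were asked for, leaving 21 and 20 Nos2 cells, 3.9% of 5433 genes were higher and 4.71% lower. Of the 10 highest genes above, Med24 alone was still among the 10 highest, and Ifit2 and Top2a were not. Of 11 interferon gamma response genes 6 were then higher and none lower. Cxcl9, 1 of these, stood at 927 against 337 CPM in the Lcn2-ko-labelled library and 995 against 185 CPM in wt. Of 9 alternative activation genes 5 were lower and none higher.

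Macrophages with Arg1 were also set against all those without, after the data had been seen. Of 9101 genes 129 (1.42%) were at least 1.5-fold higher in both libraries and 162 (1.78%) lower. Slc7a2 stood at 238.5 against 56.6 CPM in the Lcn2-ko-labelled library and 169 against 47.8 CPM in wt, log2 2.07 and 1.82. Of 11 hypoxia and glycolysis genes 4 were higher, Vegfa, Pgk1, Bnip3 and Egln3, with Bnip3 at 328 against 140 CPM and 323 against 128 CPM. Of 12 genes of lipid-associated macrophages 4 were higher, Gpnmb, Spp1, Fabp5 and Lgals3, and of 12 inflammatory cytokine genes 3, Il1a, Il6 and Cxcl1. No gene of these lists was lower. Of 11 alternative activation genes 2 were higher, Chil3 and Ccl24, and 2 lower, Ccl17 and Pparg. Of 11 interferon gamma response genes none was higher and 1 lower, Ciita. That list's medians were -0.30 and -0.28, against -0.06 and -0.09 over all genes. Cells with Arg1 were deeper, at a median of 10333 against 7805 UMIs in the Lcn2-ko-labelled library and 9561 against 8165 in wt. The part of depth in these shares was not tested.

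Among Ptprc-low cells, 927 with a Nos2 UMI were set against 732 without in the Lcn2-ko-labelled library, and 767 against 1078 in wt, again after the data had been seen. Of 11039 genes 131 (1.19%) were at least 1.5-fold higher in both libraries and 181 (1.64%) lower. Of the 12 interferon gamma response genes 6 were higher and none lower, Gbp2, Cxcl9, Cd274, Irgm1, Iigp1 and Ido1, with Cxcl9 at 392.5 against 195 CPM in the Lcn2-ko-labelled library and 191 against 120 CPM in wt. Of 11 hypoxia and glycolysis genes 6 were higher and none lower, Vegfa, Slc2a1, Ldha, Pgk1, Bnip3 and Ndrg1, with Bnip3 at 320 against 108 CPM and 344 against 105 CPM. The list medians were 0.87 and 0.59 for interferon gamma and 0.59 and 0.75 for hypoxia. The gene of the natriuretic peptide Nppb and that of the growth factor Btc were among the highest (log2 2.63 and 1.77, and 2.03 and 1.66), and Txnip among the lowest (-1.20 and -1.44). Median depth was 9979 against 7085 UMIs and 10256 against 6800, and the part of depth was not tested.

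Neutrophils with Nos2, 40 in the Lcn2-ko-labelled library and 58 in wt, were set against 347 and 559 without. Of 2907 genes 79 (2.72%) were higher and 203 (6.98%) lower, from few UMIs. The clearest was F10, coagulation factor X, at 461 against 216.5 CPM in the Lcn2-ko-labelled library and 563 against 163 CPM in wt. Atp6v0d2, a proton pump subunit and a leading gene of state N4, gave 165 against 77.3 CPM and 154 against 66.5 CPM. The other 8 named by the rule, Nrg1, Ccdc186, Tcf12, Myo1e, Rmnd5a, Ubr2, Eloa and Fbxw11, had 5 to 13 UMIs in the Nos2 cells of either library. A pair of genes of granule proteins made by immature neutrophils, picked out after their values were seen, had no UMI in the Nos2 cells. Ngp gave 0 UMIs against 216 in the Lcn2-ko-labelled library and 0 against 48 in wt, and Camp 0 against 69 in the Lcn2-ko-labelled library. Camp in wt, with 0 against 8, was too sparse to be called lower, as its log2 ratio had an upper limit of 2.36.

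The rest of the arginine pathway moved little between libraries in macrophages. Of the other uptake and nitric oxide genes 0 of 9 measured passed 1.5-fold, with Gch1, which starts the synthesis of the nitric oxide synthase cofactor, at 72.1 CPM in the Lcn2-ko-labelled library and 62.3 CPM in wt, and Slc3a2, a partner of amino acid transporters, at 481 and 436 CPM. Of ornithine and urea genes 0 of 3 passed, with Gatm, which uses arginine to make the creatine precursor, at 723 and 700.1 CPM. Of polyamine genes 0 of 10 passed, with Sat1, a polyamine-acetylating enzyme, at 884 and 1122 CPM (log2 -0.35). The list medians were 0.09, 0.05 and -0.01. Of 16 genes for regulators of Nos2 and Arg1, such as Stat6 and Hif1a, 0 passed in macrophages.

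The same 3 lists gave no call in Ptprc-low cells, with 0 of 10, 0 of 4 and 0 of 10. Neutrophils had 0 of 4 uptake and nitric oxide genes past 1.5-fold and 1 of 7 polyamine genes lower, the translation factor gene Eif5a, at 300.0 and 506 CPM. Their Smox, spermine oxidase, stood at 2100 and 2104 CPM. In monocytes Gatm was higher, at 223 CPM (230 UMIs) and 130 CPM (86 UMIs), log2 0.78 (0.41 to 1.15). Of 9 uptake genes 1 was higher there and 1 lower (Slc7a7 with 36 and 11 UMIs, Spr with 20 and 22), and 1 of 9 polyamine genes was higher and 2 lower.

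Of genes that share inducers with Nos2 and Arg1, few passed 1.5-fold in macrophages, where 0.632% of 6012 genes were higher and 1.9% lower. The macrophage list medians were 0.13 for interferon gamma response, -0.03 for alternative activation and -0.17 for inflammatory cytokines. They were 0.22 for hypoxia and glycolysis and -0.03 for lipid-associated macrophages, against 0.01 over all genes. Of 11 interferon gamma response genes none was higher and 2 lower, Cxcl10 at 427 CPM in the Lcn2-ko-labelled library and 782 CPM in wt being the lowest. Of 9 alternative activation genes 1 was higher, Ccl24 at 417 and 207 CPM, and 1 lower, Ccl17 at 212 and 403 CPM. None of 12 inflammatory cytokine genes and none of 11 hypoxia and glycolysis genes passed, and of 12 genes of lipid-associated macrophages 1 was higher, Gpnmb at 65.6 and 35.4 CPM, and 1 lower, Lpl at 58.8 and 97.5 CPM. In Ptprc-low cells 3 of 10 interferon gamma response genes were higher and none lower, where 0.357% of all genes were higher and 0.594% lower. Cxcl9 led them at 321 and 156 CPM (log2 1.05), and the list median was 0.44 against -0.03 over all genes. In monocytes 3 of 11 were higher and none lower, where 7.08% of all genes were higher and 9.21% lower, with Cxcl9 at 146 and 45.4 CPM. In neutrophils 4 of 11 were higher and 2 lower, where 12.2% of all genes were higher and 8.78% lower, with Gbp2 at 421 and 190 CPM.

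Across 23 clusters, each library a separate point, the levels of some genes ran closely with those of the 6. The likeness is Pearson's r of log2(CPM + 10) over 46 points, given as a description, since points share libraries and clusters differ in depth. Nos2 was most like Mgst1, a microsomal glutathione transferase (r = 0.93), Cstb (0.90) and Spp1 (0.90). Arg1 ran closely with Ccl24 (0.88) and Tfec (0.88), and Slc7a2 was most like Mrc1, the mannose receptor (0.90), Tfec (0.85) and C1qb (0.84). Arg2 was most like the neutrophil receptor genes Fpr2 (0.95), Tarm1 (0.95) and Csf3r (0.94). Ass1 ran less closely with Ifi27l2a (0.75) and Tmem65 (0.70), and Odc1 was most like Sdcbp2 (0.81), Fam110a (0.77) and Ltb (0.75). Among the 6 genes r was highest for Arg1 with Slc7a2 (0.78) and low for Nos2 with Arg1 (0.15).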

How the data were processed

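The authors deposited 1 matrix of UMI counts per library, not normalized, with rows for 31253 genes. The submitters' processing notes name Cell Ranger and mm10, without a version. Depth ranged from 501 UMIs per cell upward. Every column was used.

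Barcodes under 200 genes, over 20% mitochondrial UMIs, or in the top 4% of Scrublet doublet scores of a library were left out (Scrublet's own threshold marked 1 cell in each). In the Lcn2-ko-labelled library 46, 241 and 312 were removed and in wt 82, 262 and 319. Cells were clustered with scanpy 1.11.5 and leidenalg 0.10.2 (2000 variable genes without the members, the arginine lists, Lcn2 and technical genes, 30 components, 15 neighbours, resolution 1). Classes were named from marker lists. Clusters under 100 CPM of Ptprc formed the Ptprc-low class. States used 1000 genes, 15 components and resolution 0.6.

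UMIs were summed per class and library and divided by the class total. Levels have exact Poisson intervals, shares Clopper-Pearson intervals, ratios conditional binomial intervals and differences of shares Newcombe intervals, all at 95% and for counting error only. There is 1 library per label, so no test across libraries was made. The code was tested on simulated data. Thinning to 800 UMIs left out 163 Lcn2-ko-labelled and 216 wt cells.

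The named-gene rule takes all members, between sets of cells the 10 highest genes (and in macrophages the 10 lowest) by the smaller of both libraries' ratios among genes of at least 50 UMIs, in each list up to 4 genes by ratio and level, and 3 genes per member by likeness. Some genes that the rule names are not reported here. Members and lists were chosen with earlier results of these data known. Alternatives changed the filters, clustering, scaling, depth and detection limit. Equal state shares, omission of mixed states or keratin-holding cells, and the splits by Foxp3, by Arg1 alone and by Nos2 in Ptprc-low cells were added after seeing the data. Promoter sequences are from RefSeq (GRCm38.p6), which held 2 of the 6 members in the table used, and positions from GENCODE vM21.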

Additional observations from a re-analysis of the deposited data

Results flagged for a closer look

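Between states of monocytes and macrophages, Nos2 differed between the libraries in opposite directions. Its log2 ratio, Lcn2-ko-labelled library over wt, was 1.13 in MM1, 1.74 in MM2, 1.22 in MM4 and 2.70 in MM6, but -0.64 in MM5, a state mostly of monocytes. Slc7a2 had the same split, with log2 ratios of 1.46 in MM1, 0.81 in MM2 and 0.99 in MM6, and -1.45 in MM5, where it rested on 16 and 28 UMIs. Among Ptprc-low states, the log2 ratio of Odc1 was 0.79 in P10 and 1.02 in P11, against -0.60 in P1. Each of these ratios had an interval on one side of 0. With 1 library per label, the difference between states was not tested.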

How the results depend on the processing

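No paired analysis was possible because each label has 1 library. In macrophages the Nos2 log2 ratio of 1.09 was 1.36 with the members among the clustering genes. It was 0.72 as a mean of each cell's own CPM and 0.45, under 1.5-fold, after thinning to 800 UMIs. The Arg1 ratio of 0.89 was 0.71 as a mean per cell and 0.60 after thinning. The Arg1 ratio in neutrophils was -0.91 after thinning. The cause was not tested. Of 48 log2 ratios of Nos2 and Arg1 in macrophages and neutrophils, 42 moved by less than the counting interval and 6 moved further, and of 233 others 210 did and 21 moved further. Of ratios whose reported interval lay on one side of 0, those that changed sign were Odc1 in macrophages, -0.10 without states led by other classes, and Arg1 in monocytes, -0.021 after thinning. In Lcn2-ko-labelled macrophages the share with Nos2 was 8.04% thinned and 14.6% at 2 or more UMIs, that with Arg1 21.4% and 37.2%, and that of Nos2 cells with Arg1 46.7% and 71.1%. In wt they were 6.55% and 10.8%, 14.2% and 25.5%, and 43.2% and 66.1%. At 2 or more UMIs, 212 genes were higher and 256 lower in Nos2-only over Arg1-only macrophages, against 111 and 97. Arg2 in Ptprc-low cells gave no ratio after thinning. Intervals hold no spread between mice, and few cells carry most Nos2 UMIs.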

Other observations

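The stromal cluster, led by Col1a2, Igfbp7 and Fstl1, was small, with 25 cells in the Lcn2-ko-labelled library and 18 in wt. Nos2 gave 5 UMIs (28.0 CPM) there in the Lcn2-ko-labelled library and 47 UMIs (454 CPM) in wt. Its ratio to Krt8 and Krt18 UMIs was 1.00 and 23.5.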
